A study of Mus musculus with 15 samples.

Results

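The 43 genes described here lie around Nfkbid on mouse chromosome 7, from Zfp568 on 1 side to Mag on the other. They were taken by name from a list of its chromosomal neighbours, which was chosen with earlier results of these data known. All 43 were measured among the 19938 genes of the array, 1738 of which lie on chromosome 7. Of the 43, 20 precede Nfkbid in the gene order and 23 follow it. The stretch holds 54 measured genes, and the 11 that are not members are Nfkbid itself, Gm5113, Arhgap33os, Proser3, Pmis2, 2200002J24Rik, Sbsn, Krtdap, Ffar3, Ffar1 and Cd22.

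Total RNA from whole thymus of 5-week-old female mice had been measured on 15 Mouse Gene 1.0 ST arrays, 1 per mouse. NOD.LCMV mice had received gp33 (n = 3) or a Db-binding control peptide (n = 3), and NOD.Ln82-LCMV mice had received gp33 (n = 5) or the control peptide (n = 4). Every mouse was given 0.5 µg of peptide into a vein 2 h before the thymus was taken, so no group was left uninjected. gp33 comes from a surface glycoprotein of lymphocytic choriomeningitis virus (LCMV) and is seen by CD8 T cells when bound to the class I molecule Db. The series title names Nfkbid as an Idd7 gene, Idd7 being a diabetes susceptibility locus of NOD mice, in connection with impaired removal of CD8 cells in the thymus. The labels give no account of the Ln82 segment, of the LCMV construct or of batches. Strain and any batch aligned with it cannot be told apart.

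Neighbours on a chromosome are usually inherited together, and a segment that differs between related strains can change the RNA of several genes in it at once. Those that arise from the sequence of the gene's own chromosome copy are called cis differences, and they can be present whatever the treatment. Whether the differences described here are cis was not tested. The stretch around Nfkbid is dense in housekeeping genes, and it also holds a family of zinc finger repressors, the signalling adaptors Tyrobp and Hcst, a subunit of the γ-secretase that cleaves Notch, and genes used mainly in kidney, brain, skin or stomach.

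Values are deposited log2 intensities, and a strain difference is NOD.LCMV minus NOD.Ln82-LCMV, given with its standard error. A gene was called where the adjusted p of limma, over all genes, was under 0.05. Array medians lay between 7.59 and 7.67, and the lowest correlation between arrays of a group was 0.9904. Of the 43 members, 5 (Zfp82, Lrfn3, Gapdhs, Ffar2 and Mag) were dim, with a mean log2 under 6.92 (the lowest 33.3% of all genes). The 7 measured thymocyte markers were Cd3e, Cd4, Cd8a, Cd8b1, Rag1, Dntt and Ptcra. Their mean log2 values were 12.93, 12.17, 12.44, 12.33, 11.64, 11.97 and 8.99, all above the dim limit. Averaged over the peptides, 5 of 5 neutrophil markers were higher in NOD.LCMV, with 5 called with gp33 and 0 with the control peptide. In the same averaged difference, 3 of 3 measured B cell markers, 3 of 7 measured thymocyte markers (Cd4, Dntt and Ptcra) and 3 of 6 epithelial markers were lower in NOD.LCMV, and 1, 0 and 0 of them were called with the control peptide. The part of these cells in the members' strain differences was not tested. In whole thymus, fewer cells of a type and less RNA per cell cannot be told apart.

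The promoters of 6 members are shown because these genes carry the strain difference or the response to gp33: Haus5 and Polr2i had the smallest adjusted p between the strains, Psenen and U2af1l4 start next to each other, and Igflr1 and Sdhaf1 had the largest called responses. They are RefSeq windows of GRCm38.p6, from 250 bases before to 50 after an annotated start, printed 5′ to 3′ on the gene's strand. Haus5 is chr7:30664945-30665244 (minus strand), Polr2i chr7:30231824-30232123 (plus strand), Psenen chr7:30563155-30563454 (minus strand), U2af1l4 chr7:30563090-30563389 (plus strand), Igflr1 chr7:30565177-30565476 (plus strand) and Sdhaf1 chr7:30322326-30322625 (minus strand). Capitals mark exact matches, on either strand, to the motifs named after the sequences.
Haus5: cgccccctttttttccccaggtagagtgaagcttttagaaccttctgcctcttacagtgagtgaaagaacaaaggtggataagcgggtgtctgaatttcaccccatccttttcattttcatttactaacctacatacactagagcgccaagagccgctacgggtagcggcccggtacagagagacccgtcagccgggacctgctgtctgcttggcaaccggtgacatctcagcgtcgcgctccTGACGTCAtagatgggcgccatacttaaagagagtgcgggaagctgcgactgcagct
Polr2i: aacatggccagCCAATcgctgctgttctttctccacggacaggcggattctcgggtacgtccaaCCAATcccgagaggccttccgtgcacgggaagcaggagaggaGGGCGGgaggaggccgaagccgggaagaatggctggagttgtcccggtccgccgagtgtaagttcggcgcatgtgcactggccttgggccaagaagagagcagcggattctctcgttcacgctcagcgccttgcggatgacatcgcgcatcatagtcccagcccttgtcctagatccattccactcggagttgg
Psenen: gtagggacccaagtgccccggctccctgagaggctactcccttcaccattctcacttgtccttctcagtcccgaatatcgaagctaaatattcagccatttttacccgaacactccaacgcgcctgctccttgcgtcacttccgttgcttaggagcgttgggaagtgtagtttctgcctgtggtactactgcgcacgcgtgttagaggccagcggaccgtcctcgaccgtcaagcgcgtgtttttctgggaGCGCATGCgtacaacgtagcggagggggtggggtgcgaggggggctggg
U2af1l4: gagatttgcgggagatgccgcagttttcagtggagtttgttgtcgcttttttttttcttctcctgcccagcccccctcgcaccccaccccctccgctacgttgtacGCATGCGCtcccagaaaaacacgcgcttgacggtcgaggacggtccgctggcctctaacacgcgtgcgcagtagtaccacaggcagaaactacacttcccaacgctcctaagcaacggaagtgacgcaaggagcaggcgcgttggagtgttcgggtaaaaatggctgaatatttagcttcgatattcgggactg
Igflr1: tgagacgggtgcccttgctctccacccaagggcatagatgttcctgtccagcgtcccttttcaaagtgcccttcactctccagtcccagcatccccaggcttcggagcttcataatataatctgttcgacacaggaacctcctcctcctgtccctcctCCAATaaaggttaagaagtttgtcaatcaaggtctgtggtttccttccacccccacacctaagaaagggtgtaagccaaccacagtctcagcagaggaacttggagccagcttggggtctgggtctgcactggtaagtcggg
Sdhaf1: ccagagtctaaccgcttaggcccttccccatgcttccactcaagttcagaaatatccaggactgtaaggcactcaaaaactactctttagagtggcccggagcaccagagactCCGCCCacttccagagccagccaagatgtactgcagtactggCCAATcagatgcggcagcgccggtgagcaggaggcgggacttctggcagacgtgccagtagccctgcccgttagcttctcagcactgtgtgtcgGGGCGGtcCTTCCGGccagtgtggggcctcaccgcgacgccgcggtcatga
The Haus5 window holds 1 cyclic AMP response element, Polr2i 1 GC box and 2 CCAAT boxes, Igflr1 1 CCAAT box, and Sdhaf1 2 GC boxes, 1 CCAAT box and 1 ETS core, and none of these matches overlap. A GC box (GGGCGG) was found in 16 of the 39 members with a RefSeq window (41.0%), against 38.2% of all 27025 genes with one. A CCAAT box (CCAAT) was found in 18 members (46.2%, against 41.1% of all genes) and an ETS core (CCGGAAG) in 7 (17.9%, against 9.93%). A TATA box (TATAAA) was found in 1 member, Hspb6 (2.56%, against 15.7%). The NRF1 core (GCATGCGC) occurred in 4 members (10.3%, against 3.05%) and the cyclic AMP response element (TGACGTCA) in 2 (5.13%, against 2.03%). These last 2 motifs were added after the printed windows had been read, so their shares are a description only. A gene was counted where any of its windows held the motif, and the 39 members had 51 windows. Psenen has more than 1 window, and the window nearest to the start of U2af1l4 is printed. Psenen was counted for the CCAAT box and the ETS core, which the printed window does not hold. The nearest starts of Psenen and U2af1l4 lie 136 bases apart on opposite strands. Their printed windows therefore share 235 bases, and the NRF1 match printed in both is the same letters.

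The strain difference averaged over the peptides was found in many of the neighbours, in both directions and small in size. Of the 43 members, 20 were called (46.5%), 8 of them higher and 12 lower in NOD.LCMV, where 27.7% of all genes were called (12.1% higher and 15.6% lower). Of the dim genes, 5.34% were called, and none of these was a member. Among genes that were not dim, 20 of 38 members were called (52.6%), against 38.9% of all such genes. The median size of the difference was 0.11 log2 in the members and 0.06 in all genes, and no called member differed by 1.5-fold or more. Over all 15 arrays the strains did not overlap in 7 members (16.3%, against 5.8% of all genes): Capns1, Polr2i, Psenen, Kmt2b, Upk1a, Haus5 and Tmem147.

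**Figure D1:**
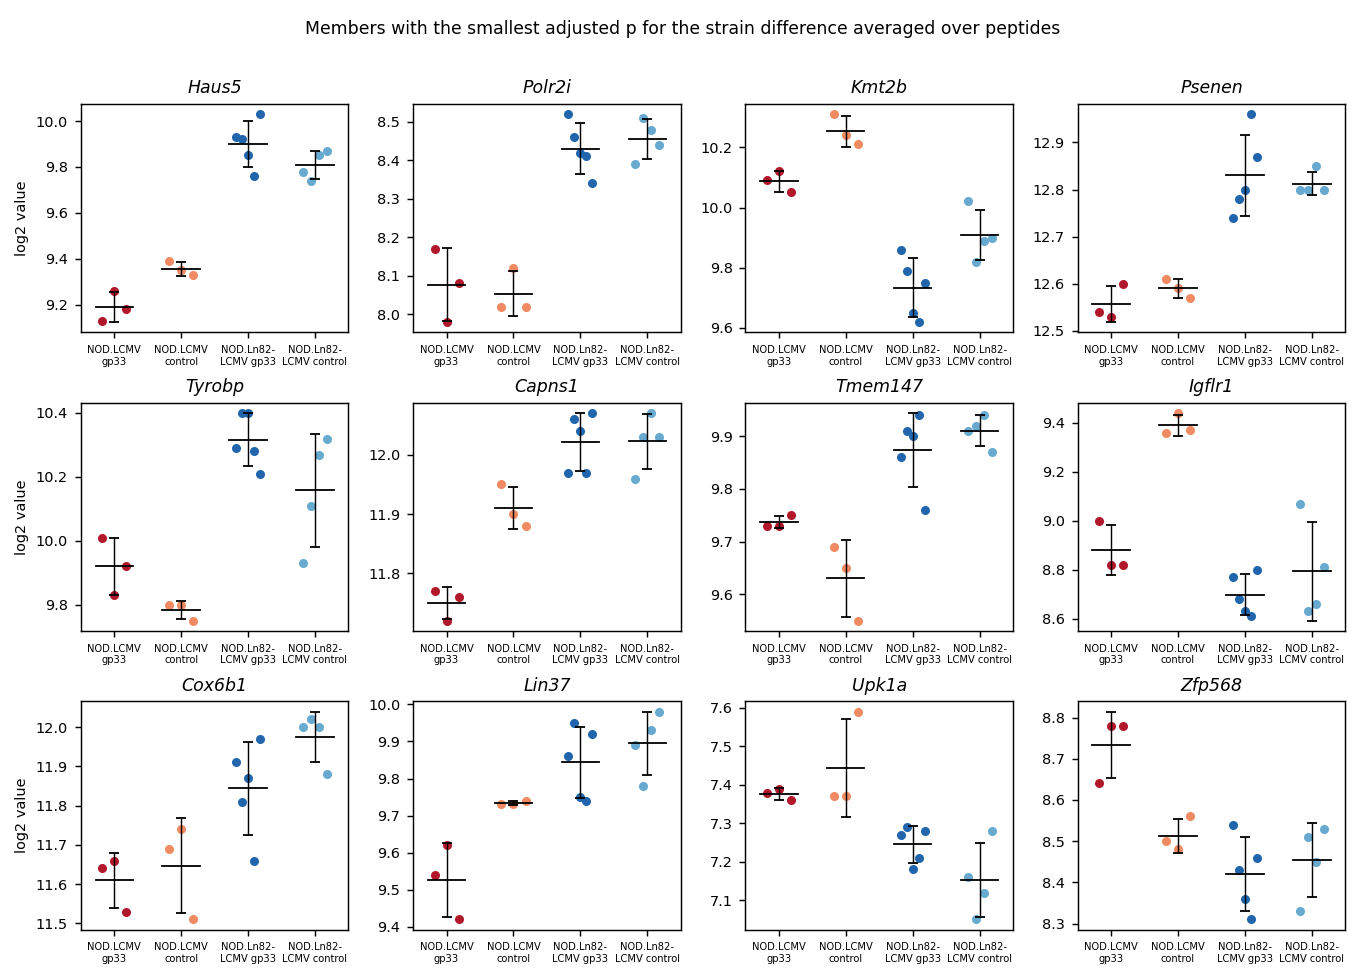
Log2 values (y axis) of the 12 members with the smallest adjusted p for the averaged strain difference, by group (x axis, "control" is the Db-binding control peptide); points are mice, bars the mean and SD. In Haus5 the 6 NOD.LCMV arrays end at 9.39 and the 9 NOD.Ln82-LCMV arrays begin at 9.74; the y axes differ between panels and do not start at 0.

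Among the centrosome and cytoskeleton genes, Haus5 had the smallest adjusted p of all members. It encodes a subunit of augmin, which seeds microtubules inside the mitotic spindle. Its log2 values in NOD.LCMV were 9.13, 9.26 and 9.18 with gp33 and 9.39, 9.35 and 9.33 with the control peptide, against 9.93, 9.92, 9.85, 9.76 and 10.03 with gp33 and 9.78, 9.74, 9.85 and 9.87 with the control peptide in NOD.Ln82-LCMV. Every NOD.LCMV array lay below every NOD.Ln82-LCMV array. The averaged difference was -0.58 ± 0.04 log2 (limma adjusted p = 1.12e-07), and with gp33 alone the level was 1.63-fold lower in NOD.LCMV (95% interval 1.51 to 1.77). A further probe set of Haus5, with a lower mean, gave smaller differences, -0.47 on average and -0.60 with gp33. Over all probe sets, the limma adjusted p of the averaged difference was 2.77e-05 for it, against 4.97e-07 for the probe set used. Of the other 4 genes of the group, Tbcb, a tubulin folding cofactor, was lower (-0.15 ± 0.04, limma adjusted p = 0.0106), and Syne4, which encodes nesprin-4 of the outer nuclear membrane, was higher (0.21 ± 0.07, limma adjusted p = 0.0278). Wdr62, a spindle pole protein, and Clip3, a microtubule-binding protein, differed by -0.06 and -0.04 and were not called. The call of Tbcb was lost after a renewed quantile normalization (-0.12), and that of Syne4 without any 1 of 6 arrays, NOD.LCMV control-peptide replicates 2 and 3, NOD.LCMV gp33 replicates 1 and 3, and NOD.Ln82-LCMV control-peptide replicates 1 and 2 (0.19 to 0.21).

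Of the 7 genes of transcription and chromatin other than the zinc finger family, 2 were lower, 1 was higher and 4 were not called. Polr2i, a subunit of RNA polymerase II, had values of 8.17, 7.98 and 8.08 with gp33 and 8.02, 8.12 and 8.02 with the control peptide in NOD.LCMV, against 8.52, 8.46, 8.42, 8.41 and 8.34 with gp33 and 8.39, 8.51, 8.48 and 8.44 with the control peptide in NOD.Ln82-LCMV. The strains did not overlap, and the difference was -0.38 ± 0.04 log2 (limma adjusted p = 2.73e-06). Kmt2b, a histone H3 lysine methyltransferase of promoters, ran the other way. Its values were 10.09, 10.12 and 10.05 with gp33 and 10.31, 10.24 and 10.21 with the control peptide in NOD.LCMV, against 9.86, 9.79, 9.65, 9.62 and 9.75 with gp33 and 10.02, 9.82, 9.89 and 9.90 with the control peptide in NOD.Ln82-LCMV. All 6 NOD.LCMV arrays were above all 9 NOD.Ln82-LCMV arrays, and the difference was 0.35 ± 0.04 (limma adjusted p = 1.50e-05).

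Lin37, a subunit of the MuvB complex that represses cell cycle genes in resting cells, had 9.54, 9.62 and 9.42 with gp33 and 9.73, 9.73 and 9.74 with the control peptide in NOD.LCMV, against 9.86, 9.95, 9.75, 9.74 and 9.92 with gp33 and 9.89, 9.78, 9.93 and 9.98 with the control peptide in NOD.Ln82-LCMV. The strains met at 9.74, and the difference was -0.24 ± 0.04 (limma adjusted p = 0.000694). Thap8, which has a THAP zinc finger, differed by -0.15, Zbtb32, a repressor induced in activated lymphocytes, by 0.10, Etv2, an ETS factor of early blood vessel development, by 0.07, and Ovol3, an OVO-like zinc finger gene, by -0.02, and none of these 4 was called.

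In the zinc finger family, 3 of 6 members were higher in NOD.LCMV and none was lower in the averaged difference. Zfp568, which represses a placental Igf2 transcript in mice, had 8.64, 8.78 and 8.78 with gp33 and 8.50, 8.48 and 8.56 with the control peptide in NOD.LCMV, against 8.54, 8.43, 8.36, 8.31 and 8.46 with gp33 and 8.33, 8.51, 8.45 and 8.53 with the control peptide in NOD.Ln82-LCMV. The strains were apart with gp33 and overlapped with the control peptide, and the averaged difference was 0.19 ± 0.04 (limma adjusted p = 0.00374). Zfp566 was higher by 0.24 ± 0.06 (limma adjusted p = 0.00489), and its values are given with the response to gp33. Zfp146, a protein made almost only of zinc fingers, was higher by 0.10 ± 0.04 (limma adjusted p = 0.0492), a call that was lost without any 1 of 12 of the 15 arrays (0.09 to 0.11). With gp33 alone, Zfp568 and Zfp566 were higher and Zfp14 was lower (-0.16 ± 0.05, limma adjusted p = 0.0212), which was not called if NOD.LCMV gp33 replicate 1 (-0.14) or 3 (-0.17) was omitted, after median centring (-0.11) and after a renewed quantile normalization (-0.09). With the control peptide alone, 0 of the 6 were called. In the averaged difference Zfp14, Zfp82 and Zfp382 differed by -0.07, 0.05 and -0.0035 and were not called.

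Of the 4 immune receptors and adaptors, 1 was lower, 1 was higher and 2 were not called. Tyrobp, also known as DAP12, is the adaptor through which activating receptors of natural killer and myeloid cells signal. Its values were 10.01, 9.83 and 9.92 with gp33 and 9.80, 9.80 and 9.75 with the control peptide in NOD.LCMV, against 10.29, 10.40, 10.40, 10.28 and 10.21 with gp33 and 9.93, 10.11, 10.27 and 10.32 with the control peptide in NOD.Ln82-LCMV. The strains were apart within each peptide, and the difference was -0.39 ± 0.06 (limma adjusted p = 7.91e-05). Hcst, also known as DAP10, the adaptor of the receptor NKG2D and the neighbour of Tyrobp, differed by -0.14 ± 0.06 and was not called (limma adjusted p = 0.0977).

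Markers of natural killer and myeloid cells differed between the strains as well, and not all in the same direction. Of 9 macrophage markers, 5 were lower and 1, Cd14, was higher in NOD.LCMV in the averaged difference. With the control peptide 2 were called, both lower, and Cd14 differed by -0.01. With gp33 5 were lower and Cd14, which was dim, was higher by 1.38. Their summed level in NOD.LCMV was 12.74 to 12.82 log2 with gp33 and 12.68 to 12.79 with the control peptide, against 12.84 to 13.20 with gp33 and 12.83 to 13.15 with the control peptide in NOD.Ln82-LCMV. Of 6 natural killer cell markers, 4 were lower in the averaged difference, 1 with the control peptide and 4 with gp33. Of the 6, 4 (Ncr1, Klrb1c, Klrk1 and Klra8) were dim. Their summed level in NOD.LCMV was 11.19 to 11.40 with gp33 and 11.36 to 11.58 with the control peptide, against 11.66 to 11.87 with gp33 and 11.59 to 11.96 with the control peptide in NOD.Ln82-LCMV. Neutrophil markers went the other way, with 5 of 5 higher in the averaged difference, 0 called with the control peptide and 5 higher with gp33. Of these 5, 3 were dim. Among 5 dendritic cell markers, 1 was lower in the averaged difference, 0 with the control peptide and 3 with gp33, and none was called higher. The part of any of these cells in the Tyrobp difference was not tested.

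Igflr1, a receptor of T cells for IGF-like family ligands, was higher in NOD.LCMV. Its values were 9.0, 8.82 and 8.82 with gp33 and 9.36, 9.44 and 9.37 with the control peptide in NOD.LCMV, against 8.77, 8.68, 8.63, 8.61 and 8.80 with gp33 and 9.07, 8.63, 8.66 and 8.81 with the control peptide in NOD.Ln82-LCMV. The strains were apart within each peptide but overlapped over all arrays, and the averaged difference was 0.39 ± 0.06 (limma adjusted p = 0.000182). With the control peptide the level was 1.51-fold higher in NOD.LCMV (95% interval 1.33 to 1.72). Ffar2, a receptor for short-chain fatty acids found on neutrophils, was dim and differed by -0.11, without a call.

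Of the 4 mitochondrial genes only Cox6b1 was called in the averaged difference. It encodes a subunit of cytochrome c oxidase and had 11.64, 11.66 and 11.53 with gp33 and 11.69, 11.74 and 11.51 with the control peptide in NOD.LCMV, against 11.91, 11.81, 11.87, 11.66 and 11.97 with gp33 and between 11.88 and 12.02 in the 4 mice with the control peptide in NOD.Ln82-LCMV. The strains touched at 11.66 with gp33 and were apart with the control peptide, and the difference was -0.28 ± 0.05 (limma adjusted p = 0.000507). Cox7a1, the heart and muscle isoform of another subunit of that enzyme, had the widest spread of all members. It ranged between 7.87 and 8.61 with gp33 and between 7.85 and 9.54 with the control peptide in NOD.LCMV, against 8.65 to 10.06 with gp33 and 8.25 to 10.24 with the control peptide in NOD.Ln82-LCMV. Its difference of -0.78 ± 0.31 was the largest of the members in size but was not called (limma adjusted p = 0.0785).

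Cox7a1 is abundant in brown fat, and the brown fat markers spread as widely. The summed level of 5 such markers was 9.78 to 10.67 log2 with gp33 and 9.41 to 11.54 with the control peptide in NOD.LCMV, against 10.18 to 12.32 with gp33 and 9.54 to 12.24 with the control peptide in NOD.Ln82-LCMV. None of the 5 was called in the averaged difference, Elovl3 and Ppargc1a were dim, and the part of such tissue in the Cox7a1 values was not tested. Sdhaf1, an assembly factor of succinate dehydrogenase, and Prodh2, which breaks down hydroxyproline, each differed by 0.03 in the averaged difference.

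The genes of secretase and proteolysis were lower in 2 of 3 cases. Psenen, the smallest subunit of γ-secretase, had 12.54, 12.53 and 12.60 with gp33 and 12.61, 12.59 and 12.57 with the control peptide in NOD.LCMV, against 12.74, 12.78, 12.80, 12.96 and 12.87 with gp33 and 12.80, 12.80, 12.85 and 12.80 with the control peptide in NOD.Ln82-LCMV. The strains did not overlap, the difference was -0.25 ± 0.03 (limma adjusted p = 4.65e-05), and a further probe set gave -0.26. Capns1, the small regulatory subunit of calpain proteases, had 11.77, 11.72 and 11.76 with gp33 and 11.95, 11.90 and 11.88 with the control peptide in NOD.LCMV, against 11.97, 12.06, 12.04, 11.97 and 12.07 with gp33 and 11.96, 12.03, 12.07 and 12.03 with the control peptide in NOD.Ln82-LCMV. Here too the strains did not overlap, with a highest NOD.LCMV array at 11.95 and a lowest NOD.Ln82-LCMV array at 11.96, and the difference was -0.19 ± 0.03 (limma adjusted p = 0.000114). Aplp1, a relative of the amyloid precursor protein that γ-secretase cleaves, differed by 0.00.

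The 2 genes of RNA handling were U2af1l4, a splicing factor related to U2AF1, and Rbm42, an RNA-binding protein. U2af1l4 was not called in the averaged difference (0.07), and Rbm42 was lower (-0.13 ± 0.04, limma adjusted p = 0.0213), which was no longer called after leaving out replicate 3 of NOD.LCMV with gp33 or with the control peptide (-0.11 each), or after median centring (-0.10). Psenen and U2af1l4, whose starts share the promoter stretch printed above, differed in opposite directions with the control peptide, by -0.22 and 0.23, and both were called there, U2af1l4 not without NOD.LCMV control-peptide replicate 2 (0.20). With gp33, Psenen and U2af1l4 differed in the same direction, by -0.27 and -0.09, and only Psenen was called. Tbcb and Polr2i, which start 683 bases apart on opposite strands, were both lower in the averaged difference. With the control peptide, Polr2i was called and Tbcb was not. Wdr62 and Thap8, which start 316 bases apart on opposite strands, were not called in the averaged difference.

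The 3 remaining genes, which share no role, were all lower in NOD.LCMV. Tmem147, a membrane protein of the endoplasmic reticulum, had 9.73, 9.73 and 9.75 with gp33 and 9.69, 9.65 and 9.55 with the control peptide in NOD.LCMV, against 9.86, 9.91, 9.90, 9.94 and 9.76 with gp33 and 9.91, 9.92, 9.94 and 9.87 with the control peptide in NOD.Ln82-LCMV. The highest NOD.LCMV array was at 9.75 and the lowest NOD.Ln82-LCMV array at 9.76, and the difference was -0.21 ± 0.03 (limma adjusted p = 0.000177). Hspb6, a small heat shock protein of muscle, was lower (-0.28 ± 0.07, limma adjusted p = 0.00626; its values are given with the response to gp33), and Alkbh6, of the AlkB family of dioxygenases, differed by -0.09 ± 0.03 (limma adjusted p = 0.0336). The Alkbh6 call was lost without any 1 of 9 arrays (-0.08 to -0.09), after median centring (-0.06) and after a renewed quantile normalization (-0.08). None of 5 smooth muscle markers was called beside Hspb6, and their summed level in NOD.LCMV was 11.28 to 11.31 with gp33 and 10.98 to 11.64 with the control peptide, against 11.33 to 11.45 with gp33 and 11.19 to 11.66 with the control peptide in NOD.Ln82-LCMV.

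Of the 9 genes used mainly in nerve, kidney, epithelium, stomach or germ line, 7 were not called, with averaged differences between -0.04 and 0.08. These were Mag (myelin), Lrfn3 (synaptic adhesion), Kirrel2 and Nphs1 (kidney filtration slit), Atp4a (gastric proton pump), Gapdhs (sperm glycolysis) and Arhgap33. Upk1a, a membrane protein of the bladder lining, had 7.38, 7.39 and 7.36 with gp33 and 7.37, 7.37 and 7.59 with the control peptide in NOD.LCMV, against 7.27, 7.29, 7.18, 7.21 and 7.28 with gp33 and 7.16, 7.05, 7.12 and 7.28 with the control peptide in NOD.Ln82-LCMV. The strains did not overlap, and the difference was 0.21 ± 0.04 (limma adjusted p = 0.00132). Dmkn, a secreted protein of the epidermis, was higher by 0.12 ± 0.04 (limma adjusted p = 0.0248), a call lost without NOD.LCMV control-peptide replicate 2, NOD.LCMV gp33 replicate 1 or 3, or NOD.Ln82-LCMV control-peptide replicate 2 (0.10 to 0.11).

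Mice given gp33 and mice given the control peptide were separate animals, so the strain difference was measured in sets of 8 and 7 arrays that share no mouse. Both tests took the spread of a gene from the same fit of all 15 arrays. A batch aligned with strain would be present in both sets. With gp33, 15 members were called (34.9%), 4 higher and 11 lower, where 27.0% of all genes were called (10.2% higher and 16.8% lower). The split became 7 higher and 9 lower after a renewed quantile normalization and 6 higher and 7 lower after median centring. Median centring turned the split of all genes as well, to 55.0% higher among those called, against 37.7%. With the control peptide, 12 members were called (27.9%), 4 higher and 8 lower, where 10.3% of all genes were called (4.77% higher and 5.54% lower). The strains did not overlap in 16 members with gp33 (37.2%, against 26.9% of all genes) and in 18 with the control peptide (41.9%, against 19.6%). The shares without overlap were not split by brightness.

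Among genes that were not dim, 39.5% of the members were called with gp33, against 37.8% of all such genes, so the members' share lay near the background there. The corresponding shares with the control peptide were 31.6% and 15.0%. Of the 12 members called with the control peptide, 9 had the same direction with gp33 (75.0%, against 85.1% for all genes called with the control peptide) and 7 were also called there (58.3%, against 60.1%). Of the 15 called with gp33, 13 had the same direction with the control peptide (86.7%, against 76.9%) and 7 were called there in that direction (46.7%, against 23.0%). The 7 were Polr2i, Tyrobp, Psenen, Kmt2b, Cox6b1, Haus5 and Tmem147. With gp33, Tmem147 was no longer called without any 1 of 6 of the 8 arrays (-0.12 to -0.14) or after median centring (-0.09). Its call was also lost with only the arrays compared (limma adjusted p = 0.0691). Cox6b1 was not called with gp33 without NOD.LCMV gp33 replicate 3 (-0.19) or after median centring (-0.18). With the control peptide, Cox6b1 was not called without NOD.LCMV control-peptide replicate 3 (-0.26). Across the 43 members the 2 differences correlated with a Pearson r of 0.73 and a Spearman coefficient of 0.71, against 0.45 and 0.46 across all 19938 genes; genes share the arrays and are not independent.

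**Figure D2:**
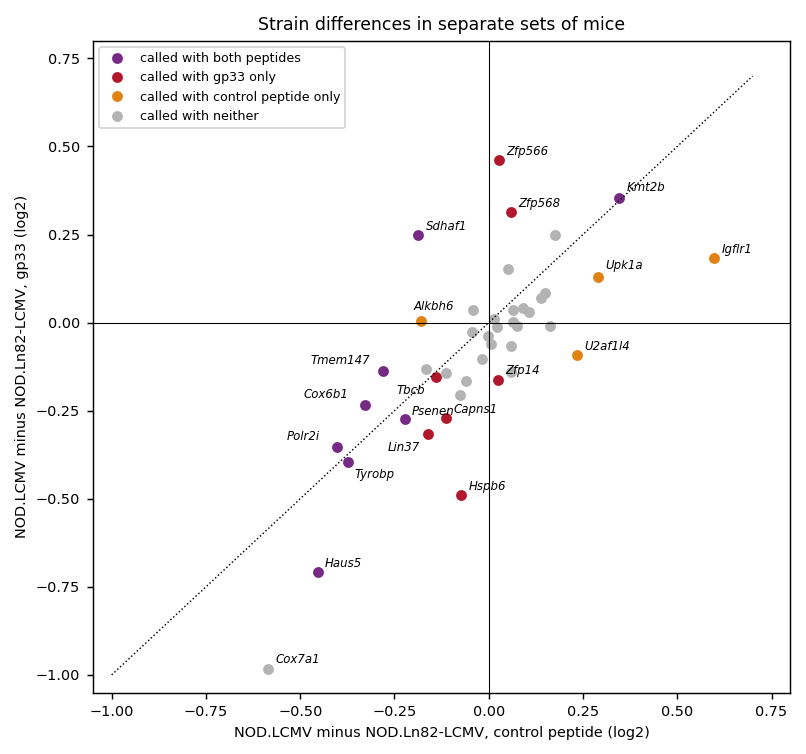
Strain difference with gp33 (y axis, log2, NOD.LCMV minus NOD.Ln82-LCMV) against that with the control peptide (x axis, same unit) for the 43 members; the dotted line marks equal differences, and members called with either peptide and Cox7a1 are named. Haus5 lies at -0.71 and -0.45, Kmt2b at 0.35 on both axes, and Sdhaf1, called with both peptides, has opposite signs (0.25 with gp33 and -0.19 with the control peptide).

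For several members the strain difference had unlike values under the peptides. Zfp566 differed by 0.46 ± 0.08 with gp33 (limma adjusted p = 0.000465) and by 0.03 with the control peptide. Hspb6 differed by -0.49 ± 0.10 with gp33 (limma adjusted p = 0.00119) and by -0.07 with the control peptide. Igflr1 was the reverse case, with 0.18 ± 0.08 with gp33 (limma adjusted p = 0.137) and 0.60 ± 0.09 with the control peptide (limma adjusted p = 0.000821). Sdhaf1, higher with gp33 (0.25 ± 0.05, limma adjusted p = 0.00229), was lower with the control peptide (-0.19 ± 0.06, limma adjusted p = 0.0433), but this last call was lost without any 1 of 10 arrays (-0.17 to -0.22). That call was also lost with only the arrays compared, after a renewed quantile normalization (-0.16) and with a variance trend. Tested directly, as the difference between the responses to gp33, the dependence on the peptide was called for Zfp566, Igflr1 and Sdhaf1 and not for Hspb6 (limma adjusted p = 0.0806), and only the Sdhaf1 call of these held with each array left out.

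In position, the called members were spread over the whole stretch. Of the 20 members before Nfkbid, 9 were called in the averaged difference (45.0%), and of the 23 after it, 11 (47.8%), while 3 of the 10 nearest were called (30.0%). The runs of neighbouring measured genes called in 1 direction were Capns1, Tbcb and Polr2i (lower), Hspb6, Lin37 and Psenen (lower), Rbm42 and Haus5 (lower), and Igflr1 and Kmt2b (higher). The other calls stood beside genes that were not called or that went the other way. Nfkbid itself was higher by 1.00 ± 0.07 on average, by 1.85 ± 0.10 with gp33 and by 0.15 ± 0.11 with the control peptide, where it was not called (limma adjusted p = 0.477). In mice given the control peptide, 12 of the 43 members were thus called (27.9%, against 10.3% of all genes) and Nfkbid was not. Of these 12 calls, 8 held with each array left out.

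**Figure D3:**
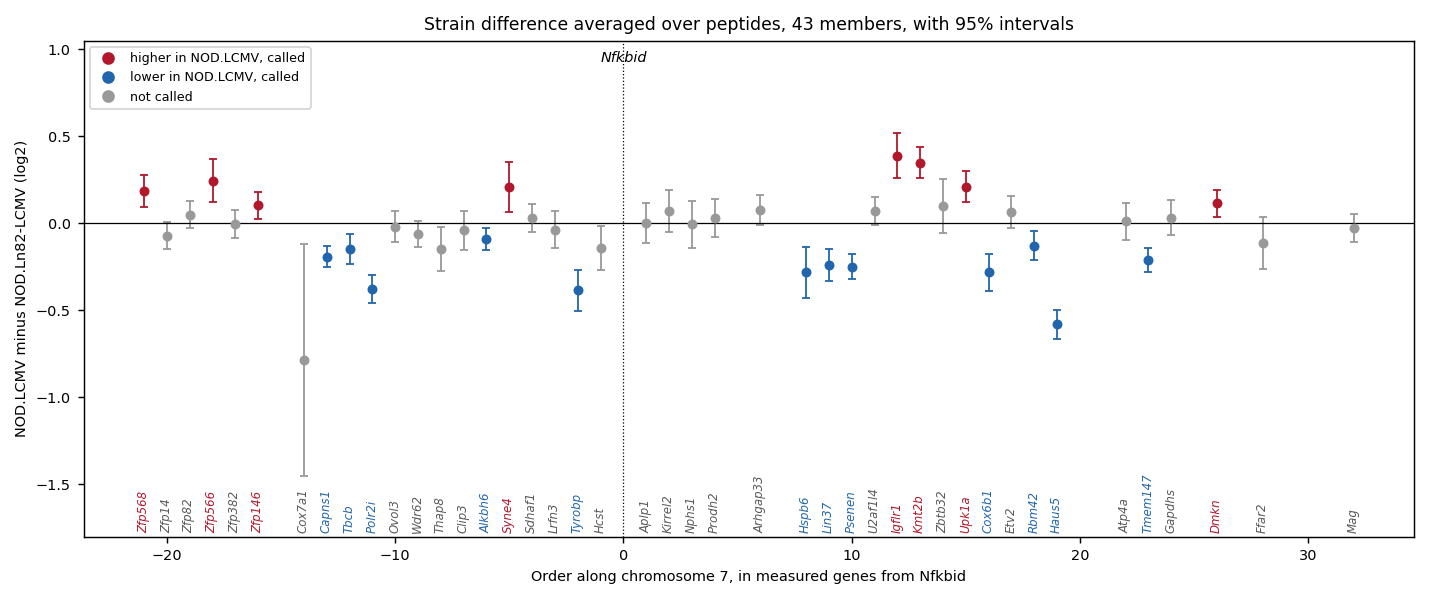
Averaged strain difference (y axis, log2, NOD.LCMV minus NOD.Ln82-LCMV) of the 43 members in their order on chromosome 7 (x axis, counted in measured genes from Nfkbid, which is marked by the dotted line and not plotted); points are the differences and bars their 95% intervals. Called members lie on both sides of Nfkbid, from 0.39 (Igflr1) to -0.58 (Haus5), and the wide interval belongs to Cox7a1.

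Beyond the stretch the shares called were as follows. Among the 25 measured genes before Zfp568, 6 were called in the averaged difference (24.0%), and among the 25 after Mag, 5 (20%). The rest of chromosome 7 had 372 of 1634 called (22.8%), and the other chromosomes 5110 of 18178 (28.1%). Of the 11 non-members inside the stretch, 3 were called (27.3%): Nfkbid, Sbsn and Cd22. With the control peptide the shares were 27.9% of the members, 16.0% before, 4.0% after, 9.42% on the rest of chromosome 7 and 10.4% on other chromosomes, and 0 of the 11 non-members inside the stretch were called. The shares by position were not split by brightness, and with the control peptide 0.903% of all dim genes were called, against 15.0% of the others. Of the non-members inside the stretch, Gm5113, Pmis2, 2200002J24Rik, Krtdap, Ffar3 and Ffar1 had group means under the dim limit of 6.92. No test of these shares against each other was made, since genes of a stretch are not independent.

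**Figure D4:**
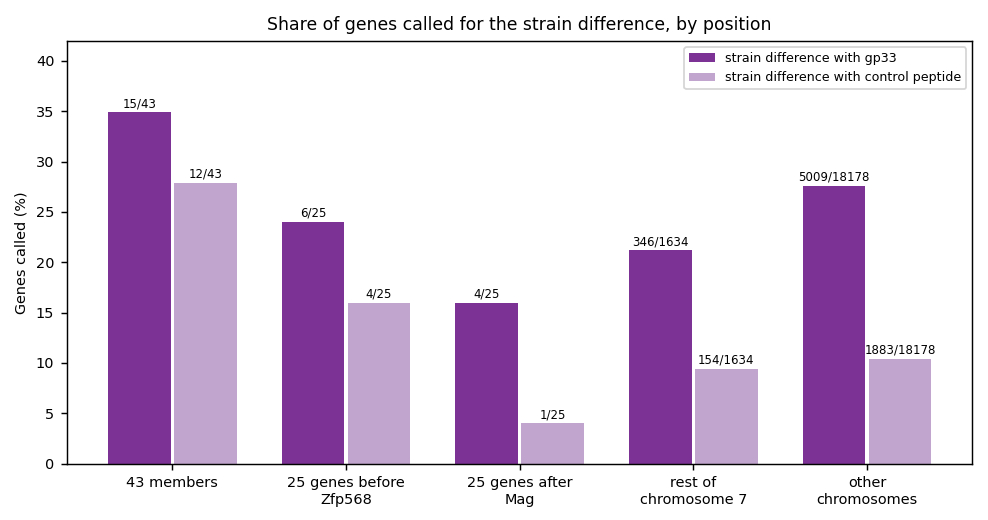
Share of genes called for the strain difference (y axis, percent) by position on the genome (x axis), with gp33 in the left and the control peptide in the right bar of each pair; the fraction called stands above each bar. The members have 15 of 43 called with gp33 and 12 of 43 with the control peptide, and the shares are not split by brightness.

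The nearest called genes beyond the ends were of similar size. Before Zfp568 they were Zfp420 (0.34 ± 0.07), Yif1b (-0.24 ± 0.04), Eif3k (-0.19 ± 0.03), Psmd8 (-0.17 ± 0.03), Map4k1 (0.13) and Sipa1l3 (0.09). After Mag they were Fxyd1 (-0.53), Gramd1a (0.21), Hpn (0.21), Pdcd2l (-0.16) and Lsm14a (0.10). Called genes thus lay on both sides of the stretch as well as in it.

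The response to gp33, gp33 minus control peptide within a strain, was seen in some members in NOD.LCMV. There 11 members were called (25.6%), 4 higher and 7 lower with gp33, where 19.8% of all genes were called (7.29% higher and 12.5% lower). Among genes that were not dim the shares were 28.9% of the members and 28.1% of all genes, so the members' share lay at the background. A renewed quantile normalization turned the split into 5 higher and 5 lower, and median centring moved the higher share of all called genes to 50.1%, against 36.9%. Without NOD.LCMV control-peptide replicate 1 the count was 6, and without replicate 2 it was 7.

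The largest rise with gp33 was that of Sdhaf1. Its values in NOD.LCMV were 9.38, 9.47 and 9.30 with gp33, against 8.84, 8.93 and 8.82 with the control peptide, and in NOD.Ln82-LCMV 9.14, 9.16, 9.13, 9.03 and 9.22 with gp33, against 8.95, 9.10, 9.08 and 9.07 with the control peptide. The peptides were apart in NOD.LCMV and overlapped in NOD.Ln82-LCMV. The rise in NOD.LCMV was 0.52 ± 0.06 log2, or 1.43-fold (95% interval 1.31 to 1.56; limma adjusted p = 1.35e-05). Zfp566 had 9.12, 9.12 and 9.23 with gp33, against 8.66, 8.73 and 8.63 with the control peptide in NOD.LCMV, and 8.69, 8.70, 8.62, 8.93 and 8.54 with gp33, against 8.70, 8.63, 8.79 and 8.46 with the control peptide in NOD.Ln82-LCMV. The gp33 mice of NOD.LCMV stood above every other mouse, with a rise of 0.48 ± 0.09 (limma adjusted p = 0.00117). Alkbh6 had 10.42, 10.46 and 10.41 with gp33, against 10.16, 10.15 and 10.13 with the control peptide in NOD.LCMV, and 10.38, 10.46, 10.34, 10.44 and 10.51 with gp33, against 10.30, 10.33, 10.32 and 10.36 with the control peptide in NOD.Ln82-LCMV. The low values were those of the NOD.LCMV control-peptide mice, and the rise in NOD.LCMV was 0.28 ± 0.05 (limma adjusted p = 0.000337).

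Igflr1, whose values are given above, fell with gp33 in NOD.LCMV (-0.51 ± 0.09 log2, limma adjusted p = 0.00113). Its gp33 arrays still lay at 8.82 or higher, against 8.80 or lower in NOD.Ln82-LCMV with gp33. U2af1l4 had 10.02, 9.96 and 10.14 with gp33, against 10.39, 10.44 and 10.30 with the control peptide in NOD.LCMV, and 10.20, 10.14, 10.13, 10.15 and 10.04 with gp33, against 10.21, 10.13, 10.08 and 10.15 with the control peptide in NOD.Ln82-LCMV. The NOD.LCMV control-peptide mice stood above all others, and the difference with gp33 was -0.34 ± 0.06 (limma adjusted p = 0.000571). Hspb6 had 8.60, 8.54 and 8.62 with gp33, against 9.20, 9.12 and 8.71 with the control peptide in NOD.LCMV, and 9.17, 9.02, 9.04, 9.06 and 9.09 with gp33, against 9.0, 9.30, 9.10 and 8.93 with the control peptide in NOD.Ln82-LCMV. The NOD.LCMV gp33 mice were the lowest, and the difference of -0.42 ± 0.11 (limma adjusted p = 0.0103) lost its call without control-peptide replicate 1 (-0.33) or 2 (-0.37).

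U2af1l4 and Igflr1 are neighbours on the same strand, and a probe set that the annotation assigns to both gave a response of -0.43 in NOD.LCMV; how far RNA of either gene reaches the other's probes was not tested. The remaining called members were Zfp14 (-0.27 ± 0.05, limma adjusted p = 0.00226), Zfp568 (0.22 ± 0.07, limma adjusted p = 0.0265), Lin37 (-0.21), Arhgap33 (-0.19) and Capns1 (-0.16). Without 1 array the call was lost for 4 arrays in Zfp568 (0.20 to 0.21), 8 in Lin37 (-0.15 to -0.21), 8 in Arhgap33 (-0.18 to -0.21) and 2 in Capns1 (-0.14 and -0.15). The calls of Zfp14, Zfp566, Alkbh6, Sdhaf1, U2af1l4 and Igflr1 held with each array left out and under every alternative other than the fold limit.

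Markers of cell types moved with gp33 in NOD.LCMV as well. Of 7 measured thymocyte markers 4 were lower, and their summed level was 14.45 to 14.90 log2 with gp33, against 14.91 to 15.06 with the control peptide. All 5 neutrophil markers were higher, 3 of them dim, with a summed level of 9.92 to 10.39 with gp33, against 9.04 to 9.17 with the control peptide. Of 5 dendritic cell markers 3 were lower, and of 6 epithelial markers 2. The part of these cells in the members' responses was not tested.

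**Figure D5:**
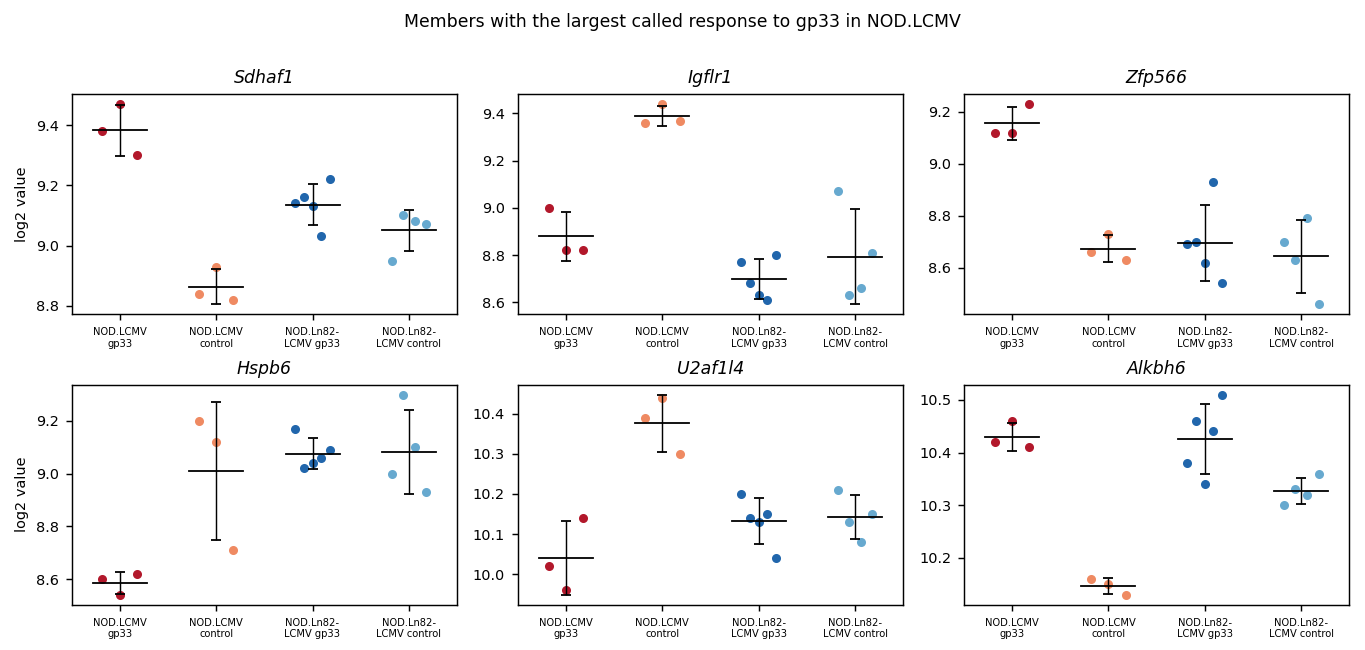
Log2 values (y axis) of the 6 members with the largest called response to gp33 in NOD.LCMV, by group (x axis, "control" is the Db-binding control peptide); points are mice, bars the mean and SD, and the y axes differ between panels and do not start at 0. Sdhaf1 and Zfp566 are highest in NOD.LCMV with gp33, and Igflr1 and U2af1l4 are highest in NOD.LCMV with the control peptide.

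In NOD.Ln82-LCMV, 0 members were called by limma (3 at an unadjusted p under 0.05), where 0.00502% of all genes, a single gene, was called and 1190 genes had an unadjusted p under 0.05. The members' differences lay between -0.17 (Kmt2b) and 0.16 (Tyrobp). Sdhaf1 differed there by 0.09 ± 0.05, Zfp566 by 0.05 ± 0.07 and Igflr1 by -0.09 ± 0.08.

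The difference between the responses (NOD.LCMV response minus NOD.Ln82-LCMV response) was tested directly and called 4 members (9.3%), 2 higher and 2 lower, where 8.73% of all genes were called (4.46% higher and 4.26% lower). The members' share therefore lay near the background. Sdhaf1 differed by 0.43 ± 0.08 (limma adjusted p = 0.00184), and this call held with each array left out and under every alternative other than the fold limit. Zfp566 differed by 0.43 ± 0.12 (limma adjusted p = 0.0299), a call lost without any 1 of 7 arrays (0.38 to 0.45). U2af1l4 differed by -0.33 ± 0.07 (limma adjusted p = 0.0113), and its call was lost after median centring (-0.27). Igflr1 differed by -0.42 ± 0.12 (limma adjusted p = 0.0466), and its call was lost without any 1 of 12 arrays (-0.36 to -0.43), after a renewed quantile normalization (-0.37) and after median centring (-0.36). A renewed quantile normalization called 4 members, 3 higher and 1 lower, and median centring called 4, all higher, so the members called were not all the same. Over all genes called, the share that was higher went up likewise, to 75.2% after median centring, against 51.1%. The difference between responses for Hspb6 was -0.42 ± 0.14 and was not called (limma adjusted p = 0.0806).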

How the data were processed

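RNA of whole thymus was hybridised to 15 arrays. The deposited table holds log2 values; per the submitters' processing notes, the authors used RMA and Affymetrix Expression Console 1.1, and no further normalization was applied. An array reads less where a transcript differs from its probe, and probe sequences were not used here. Of 35556 probe sets, the 21789 with 1 symbol in the platform annotation were kept, and a gene took its probe set with the highest mean, which left 19938 genes. The 1621 probe sets with several symbols and the 12146 unnamed ones were left out. Gene order came from a RefSeq table of GRCm38.p6. The build of the array annotation is not given in the sources used here, so only promoter windows have coordinates.

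All genes and arrays were fitted together with lmFit and eBayes of limma 3.58.1 under R 4.3.3, with 1 coefficient for each group (11 residual degrees of freedom, 14.9 after moderation). Each of the 6 comparisons was tested two-sided, with Benjamini-Hochberg adjustment over all genes. The code was tested on simulated data. Each array is a separate mouse per the labels, and precision is limited by their number. Values of every array are given for up to 14 members with the smallest adjusted p in the averaged strain difference, for members called in the difference between responses, and for up to 6 called members with the largest response in NOD.LCMV. The members, gene lists and comparisons were chosen with earlier results of these data known.

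The alternatives were median centring, a renewed quantile normalization, a fit without the dimmest 33.3% of genes, the mean over probe sets, a variance trend, array weights, only the arrays compared, a 1.5-fold limit, a replicate block and leaving out each array.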

Additional observations from a re-analysis of the deposited data

Results flagged for a closer look

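In 7 of 86 groups of 4 or 5 arrays, 1 array stood apart from the rest of its group by Dixon's test, where chance gives about 1 in 20, or 4.3. Genes share the arrays, so the 86 groups are not independent. All 7 were NOD.Ln82-LCMV groups, the only ones large enough for the test. With gp33, replicate 5 was high in Thap8 (7.29, the others 6.86 to 6.93) and in Nphs1 (7.38, the others 6.99 to 7.09), and this array also had the lowest array weight of the 15 (0.282). With the control peptide, replicate 1 was high in Zfp14 (8.35, the others 8.14 to 8.16) and replicate 3 in Psenen (12.85, the others all 12.80). The other Psenen values of that group are tied as deposited, so any higher value would have been flagged. Replicate 2 was low in Aplp1 (7.31, the others 7.59 to 7.64) and Gapdhs (6.75, the others 6.92 to 6.95), and replicate 4 was low in Cox6b1 (11.88, the others up to 12.02).

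The response to gp33 differed between the strains in 4 members by the test of the difference itself: Zfp566 (0.43), Sdhaf1 (0.43), U2af1l4 (-0.33) and Igflr1 (-0.42, all log2, NOD.LCMV minus NOD.Ln82-LCMV). Of these calls, that of Sdhaf1 held with each array left out and under every alternative other than the fold limit. Those of Zfp566 and Igflr1 were lost without any 1 of 7 and of 12 arrays, and that of U2af1l4 after median centring (-0.27).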

How the results depend on the processing

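Of the called differences recomputed under the alternatives, none changed its sign (those not called were not followed), and the calls of 14 of the 20 members in the averaged strain difference held in all of them and with each array left out, the fold limit aside. With a limit of 1.5-fold, the members called between the strains were 0 on average, 1 with gp33 and 1 with the control peptide, and there were 0 for the response in NOD.LCMV and 0 for the difference between responses. Array weights gave 19 members with the control peptide (21.8% of all genes) and 9 for the difference between responses (15.9%); the cause was not tested. With each array left out, the counts were 15 to 21 (averaged), 9 to 13 (control peptide), 11 to 16 (gp33), 6 to 14 (response in NOD.LCMV), 0 to 0 (response in NOD.Ln82-LCMV) and 2 to 6 (difference between responses). The difference between responses had 2 without NOD.LCMV gp33 replicate 2 or 3, NOD.LCMV control-peptide replicate 1, NOD.Ln82-LCMV gp33 replicate 2 or 3, or NOD.Ln82-LCMV control-peptide replicate 3. Over all genes, median centring moved the share of higher calls in the averaged difference to 55.6%, against 43.6%. With every probe set tested on its own, the difference between responses of Igflr1 was not called (limma adjusted p = 0.0878). The labels do not say whether NOD.Ln82-LCMV mice with the same number belong together. The deviations of same-numbered mice correlated at 0.117, 0.0085, -0.0495 and -0.226, and those of unlike numbers at -0.352 to 0.49. Such correlations cannot decide whether the mice were paired. With the number as a replicate block, 24 members were called in the averaged difference, 13 with the control peptide, 17 with gp33, 10 in the response of NOD.LCMV, 0 in that of NOD.Ln82-LCMV and 4 in the difference between responses, where Zfp566 lost its call (0.39, limma adjusted p = 0.0825). NOD.LCMV has 3 arrays a group, so the smaller differences rest on few mice.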
